A study of Homo sapiens with 6 samples.

Results

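The genes described here encode the machinery that shortens the poly(A) tail of mRNAs, removes their cap and degrades the body of the transcript. The 46 genes were taken by symbol from the deposited gene table, which holds 58735 genes, and fall into 12 subunits of the CCR4-NOT deadenylase complex, 5 other deadenylases and poly(A)-binding proteins, 9 decapping factors, 2 5′-3′ exonucleases, 11 genes of the exosome and its cytoplasmic helper complex, and 7 factors of nonsense-mediated decay (NMD). RNA was sequenced from 3 libraries of cells with stable shRNA knockdown of CNOT7, a catalytic subunit of CCR4-NOT, and 3 libraries of control cells, and neither group had received a treatment. The labels name the cells as SW480, a human colorectal cancer line, whereas the study text names HCT116, another colorectal cancer line, for its RNA sequencing. The labels give neither the shRNA that each knockdown library carries nor whether the libraries of a group came from separate cultures, so p-values measure the spread between these libraries, which may be technical. The study lists 2 CNOT7 hairpins, and the numbers 1 to 3 in the labels were read as replicate numbers, so the knockdown group could hold 1 stable line or more than 1. A feature of the lines used and the knockdown cannot be told apart. The comparison asks whether the levels of the other decay genes differed when CNOT7 was low, and in particular whether its paralogue or other deadenylases were higher.

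Most cytoplasmic mRNAs are degraded after their poly(A) tail has been removed. PAN2-PAN3 trims long tails and CCR4-NOT removes the rest, through the exonucleases CNOT7 or CNOT8 and CNOT6 or CNOT6L, which are docked on the scaffold CNOT1. The cap is then removed by DCP2 with its activators and XRN1 degrades the mRNA from the 5′ end, or the exosome degrades it from the 3′ end. NMD removes mRNAs with premature stop codons through UPF1 and the SMG proteins, and it feeds them into the same decapping and deadenylation enzymes.

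Control libraries held 23788451 to 25982493 counts and knockdown libraries 27523812 to 29104872, and the share of mitochondrially encoded reads was 6.36 to 6.88% and 6.54 to 7.40%. Of 11 markers of colorectal epithelium, 7 reached 1 CPM (counts scaled to the same library total) in every library, among them EPCAM, CDH1 and VIL1, whereas KRT20, CDX1, CDH17 and LGALS4 did not. Their summed level was 5555 to 5973 CPM in control and 5134 to 5684 CPM in knockdown libraries. Most of this sum came from KRT8, KRT18 and KRT19, and single markers moved in both directions. KRT8 and KRT19 were called lower in the knockdown libraries, whereas CDH1 (1.42-fold) and VIL1 (1.64-fold) were called higher. EPCAM, KRT18 and CDX2 were not called. Of 5 markers of blood cells, 0 reached 1 CPM in every library, with summed levels of at most 1.60 CPM. Of 6 fibroblast markers, COL1A1 alone reached it, COL3A1 and DCN were at 0 in every library, and the summed levels were 9.07 to 10.8 CPM in control and 10.2 to 11.95 CPM in knockdown libraries. Of 4 endothelial markers, VWF alone reached it, and the sums were 1.68 to 2.34 CPM and 2.75 to 3.48 CPM.

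All 46 decay genes were expressed above the filter on low counts, which left 17574 genes to test. In the knockdown libraries 2 of them rose, CNOT8 and DIS3, and 6 fell, CNOT7, CNOT9, CNOT3, DDX6, EXOSC10 and SMG5 (edgeR quasi-likelihood test, Benjamini-Hochberg adjusted p under 0.05). The 8 genes make 17.4% of the 46, and without CNOT7 7 of 45 genes (15.6%) passed. Over all genes tested, 25.2% passed, 13.3% as higher and 11.9% as lower, and among the genes at least as abundant as the least abundant decay gene, LSM1, 30.1% passed. The share of decay genes called was below this background here but not under every setting. With no filter on low counts 9 of the 46 passed, beside 13.2% of the genes then tested. That fit took in genes of low count: 34509 were tested, beside 17574 with the filter, whereas 4543 were called, beside 4424. After correction for GC content and gene length, an alternative chosen after seeing the data, 23 of the 46 passed, beside 40.3% of all genes tested. The difference between these shares was not tested. The 2 groups of libraries did not overlap in 18 of the 46 genes, beside 38.8% of all genes tested. The median log2 fold change of the 46 genes was -0.04, with quartiles at -0.13 and 0.05. Over all genes tested the median was 0.00 and the quartiles -0.15 and 0.22. All genes tested reach down to a control mean of 0.0143 CPM, beside 9.22 CPM for the lowest of the 46 genes. The spreads were not compared at matched abundance. The split into higher and lower calls moved with the scaling: with the trend of fold change with abundance removed, 5 decay genes rose and 5 fell and their median was 0.01, and after the GC and length correction 3 rose and 20 fell. CNOT7, CNOT8, CNOT9, DDX6, DIS3 and SMG5 kept their calls in all 13 alternatives tried.

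**Figure D1:**
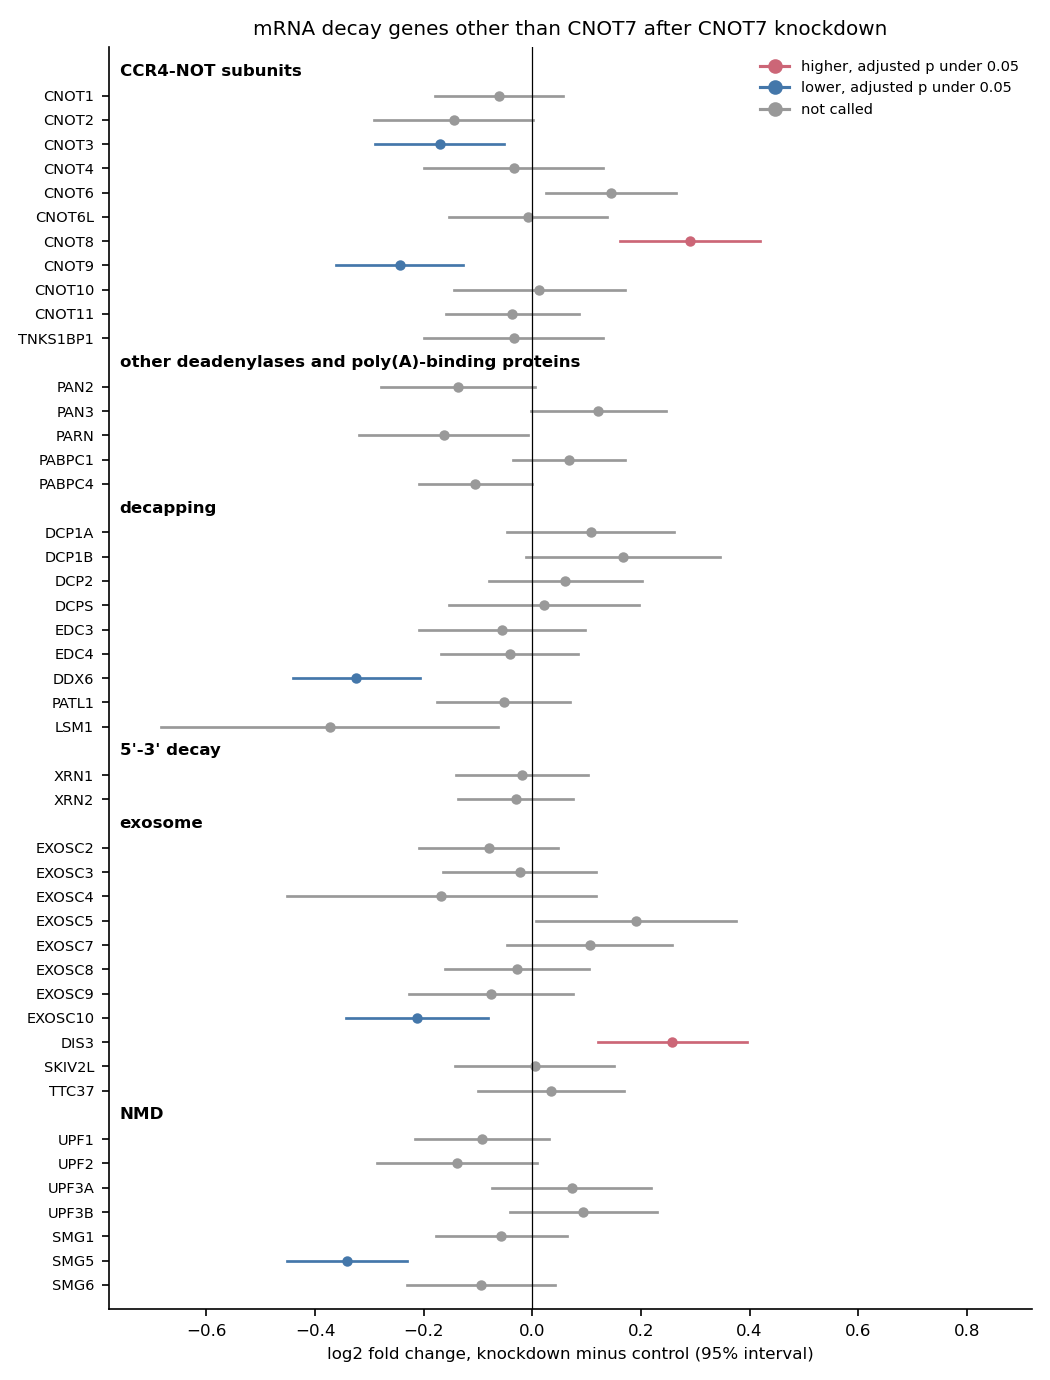
Log2 fold changes (knockdown minus control, x axis) of the 45 decay genes other than CNOT7, by role, from 3 libraries a group; points are the edgeR estimates and lines their 95% intervals, coloured by the call at an adjusted p of 0.05. CNOT8 and DIS3 lie above 0, CNOT9, CNOT3, DDX6, EXOSC10 and SMG5 lie below 0, and LSM1 has the widest interval.

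For most of the 38 genes that did not pass, the size of a change was bounded. For 34 of them the 95% interval of the fold change lay between 20% below and 25% above control. The other 4 were named after their values were seen: DCP1B and EXOSC5 reached past this range upward, and LSM1 and EXOSC4 downward. The range is as wide as many called changes. The means of CNOT8 and DIS3, at 122% and 120% of control, lie inside it, as do those of CNOT9, CNOT3 and EXOSC10. DDX6 and SMG5, at 79.9% and 79.0%, lie just below it. The range alone therefore does not exclude a change as large as that of CNOT8. Read gene by gene, the upper bounds of the 34 genes all lay below the rise of CNOT8. The highest of them was a log2 fold change of 0.264, for CNOT6, beside 0.291 for CNOT8. A fall of that size was not excluded for all 34, since the lower bound of PARN was -0.319. Among the 38 genes the highest upper bound was a log2 fold change of 0.38, for EXOSC5, and the lowest lower bound was -0.68, for LSM1. Of these genes, 5 had an unadjusted p under 0.05, namely CNOT6, PARN, PABPC4, LSM1 and EXOSC5, and they were not called after adjustment over all genes. The share of all genes at this unadjusted threshold was not counted, so whether 5 is many cannot be told.

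CNOT7, the targeted gene, was measured at 169, 191 and 176 CPM in the control libraries and at 43.4, 47.2 and 38.6 CPM in the knockdown libraries. Each knockdown library lay far below each control library, in the direction of its label. The mean fell from 179 ± 11.3 CPM to 43.1 ± 4.31 CPM (SD, n = 3 each), which leaves 24.1% of the control level. The log2 fold change was -2.05 (SE 0.0734, adjusted p = 2.64e-12).

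CNOT8 encodes the paralogue that can take the place of CNOT7 in the complex. Its gene spans chr5:154857553-154876793 on the plus strand (GRCh38). It was measured at 64.3, 68.7 and 63.8 CPM in the control libraries and at 78.1, 84.1 and 78.4 CPM in the knockdown libraries. Each knockdown library was above each control library. The rise was 1.22-fold (95% interval 1.12 to 1.34), a log2 fold change of 0.29 (SE 0.0613, adjusted p = 0.00204), and over the alternatives it stayed between 0.22 and 0.33 with an adjusted p of at most 0.0224.

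Whether reads of the paralogues could be confused was checked in the annotated transcripts (GENCODE release 29). The coding sequences are 858 bases long for CNOT7 and 879 bases for CNOT8, and 71.9% of 840 aligned coding positions and 77.0% of 282 aligned residues were identical. The longest run of bases that any transcripts of the pair share was 20. The first 150 coding bases of CNOT8 are shown because they let the pair be told apart: the capitals mark the 46 bases at which the aligned CNOT7 coding sequence has another base.
CNOT8: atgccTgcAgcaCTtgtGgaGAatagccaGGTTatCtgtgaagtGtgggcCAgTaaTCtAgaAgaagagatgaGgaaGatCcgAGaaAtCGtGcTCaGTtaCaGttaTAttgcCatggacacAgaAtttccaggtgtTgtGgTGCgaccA
The differing bases are spread over the whole stretch and leave only short shared runs between them.

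**Figure D2:**
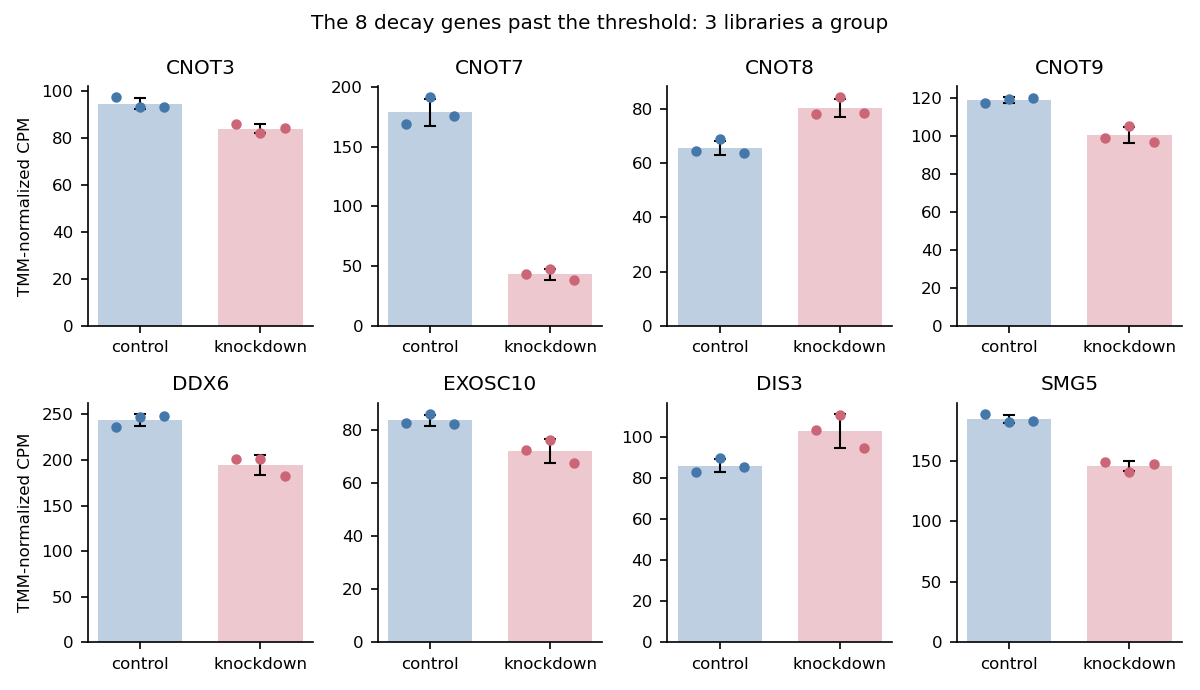
TMM-normalized CPM (y axis, from 0) of the 8 decay genes past the threshold, with 1 point per library, bars for the group mean and error bars for the SD over 3 libraries. The CNOT7 panel shows the fall to 24.1% of control, whereas the other 7 panels show means between 79.0% (SMG5) and 122% (CNOT8) of control with groups that do not overlap.

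Levels of the exonuclease pair were set side by side per kilobase of annotated exon, since their gene models differ in length. On this scale the control libraries held CNOT7 at 16.3 ± 1.03 and CNOT8 at 16.7 ± 0.683 CPM per kb. In knockdown libraries CNOT7 was at 3.94 ± 0.394 and CNOT8 at 20.4 ± 0.864 CPM per kb. The CNOT7 share of the summed level was 48.6, 50.0 and 49.8% in the control libraries and 16.6, 16.8 and 15.0% in the knockdown libraries. CNOT8 made the larger part of the pair in each knockdown library. The summed level went from 33.0 ± 1.68 to 24.4 ± 1.21 CPM per kb, 73.8% of control, and the gain of CNOT8 (3.73 CPM per kb) equalled 30.1% of the loss of CNOT7 (12.4 CPM per kb). All of these shares depend on the length used. In CPM without a length, CNOT7 made 73.1% of the pair in control and 34.9% in knockdown libraries, and the sum went from 244 to 123 CPM, 50.5% of control. On that scale the gain of CNOT8 was 14.7 CPM and the loss of CNOT7 136 CPM, so that the gain equalled 10.8% of the loss. These are descriptions of mRNA levels with no test, and the exon length is that of all annotated transcripts, not of those expressed.

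**Figure D3:**
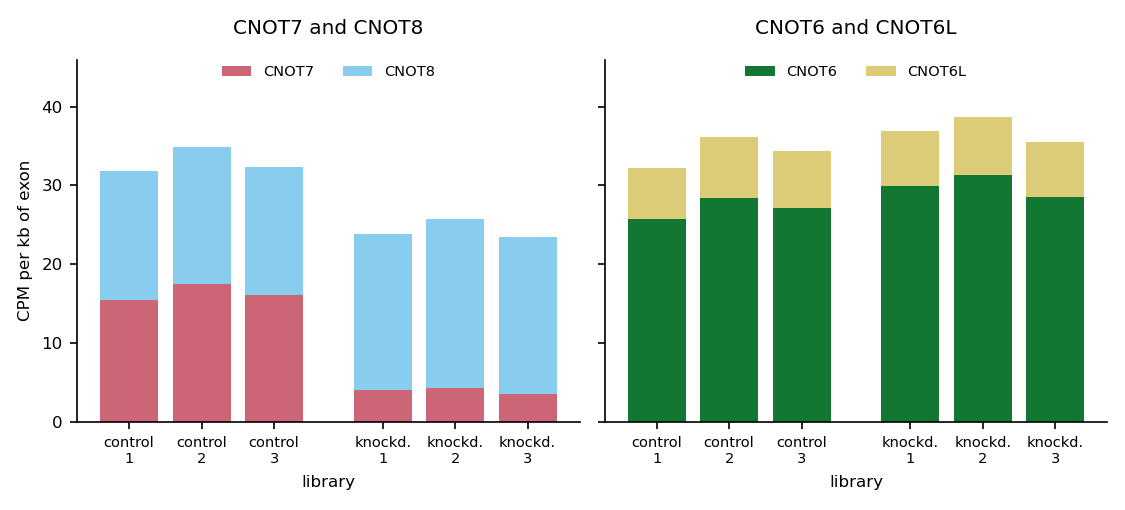
Stacked levels (CPM per kb of exon, y axis) of CNOT7 and CNOT8 on the left and of CNOT6 and CNOT6L on the right, with 1 bar for each of the 3 control and 3 knockdown libraries. The CNOT7 part shrinks in the knockdown bars and the CNOT8 part grows less than CNOT7 shrinks, so that the left sum is 73.8% of control, whereas the right sum is 108% of control.

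The second pair of catalytic subunits, CNOT6 and CNOT6L, belongs to another nuclease family than CNOT7 and CNOT8. CNOT6 was measured at 170, 187 and 179 CPM in control and at 198, 206 and 188 CPM in knockdown libraries. The groups did not overlap, but the lowest knockdown library was within 1 CPM of the highest control library. Its log2 fold change was 0.14 (SE 0.0568, adjusted p = 0.0726), which did not pass. It was called higher without control replicate 2 (adjusted p = 0.0403), with the abundance trend removed (0.20, adjusted p = 0.0101) and after the GC and length correction (0.11, adjusted p = 0.00625). CNOT6L was measured at 60.9, 73.0 and 67.3 CPM in control and at 65.1, 68.8 and 66.2 CPM in knockdown libraries. The groups overlapped fully, with a log2 fold change of -0.01 (95% interval -0.15 to 0.14, adjusted p = 0.949). Per exon length, CNOT6 made 79.1 ± 0.702% of the pair in control and 80.8 ± 0.556% in knockdown libraries.

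CNOT1, the scaffold that holds the subunits together, was measured at 346, 387 and 365 CPM in control and at 348, 370 and 334 CPM in knockdown libraries. The groups overlapped, and the log2 fold change was -0.06 (95% interval -0.18 to 0.06, adjusted p = 0.473). CNOT9, which joins the complex to RNA-binding proteins and to the microRNA machinery (chr2:218568580-218597080), was measured at 117, 119 and 120 CPM in control and at 99.0, 105 and 97.0 CPM in knockdown libraries. All knockdown libraries were lower, with a log2 fold change of -0.24 (SE 0.0556, adjusted p = 0.00367). CNOT3, part of the module of the complex without nuclease activity (chr19:54137717-54155708), was measured at 97.2, 93.2 and 92.9 CPM in control and at 85.7, 81.9 and 84.1 CPM in knockdown libraries. Its groups did not overlap and its log2 fold change was -0.17 (SE 0.0563, adjusted p = 0.0338). This call was lost when any library except control replicate 2 was left out, with adjusted p-values up to 0.131, and with the abundance trend removed (adjusted p = 0.126).

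Of the remaining CCR4-NOT genes, CNOT2, CNOT4, CNOT10, CNOT11 and TNKS1BP1 did not pass, with log2 fold changes from -0.14 to 0.01. CNOT2 was called lower without knockdown replicate 2 (-0.20, adjusted p = 0.0371) and with the replicate block (adjusted p = 0.0181). After the GC and length correction CNOT2, CNOT11 and TNKS1BP1, as well as CNOT1, were called lower. Among the 11 subunits other than CNOT7, 1 rose, 2 fell and 8 did not pass, with a median of -0.03. The calls make 27.3% of the 11, beside 25.2% of all genes tested. Per exon length, the highest subunits in control libraries were CNOT11 at 33.8 ± 0.138 and CNOT1 at 33.7 ± 1.88 CPM per kb, which did not differ beyond their spread. CNOT6 followed at 27.1 ± 1.32, TNKS1BP1 at 24.2 ± 2.20, CNOT9 at 22.5 ± 0.272, and then CNOT8 and CNOT7, which did not differ beyond their spread either. CNOT3, at 13.7 ± 0.346, and CNOT10, at 12.9 ± 1.03, were again within their spread of each other, and CNOT6L, CNOT4 and CNOT2 were lowest, at 7.16 ± 0.651, 4.98 ± 0.470 and 4.24 ± 0.239 CPM per kb. In knockdown libraries CNOT7 moved from rank 7 to rank 11 of 12, and CNOT8 from rank 6 to rank 5. This order depends on the exon lengths used, from 2.79 kb for CNOT11 to 13.99 kb for CNOT2. The spread given is that between libraries and does not cover the choice of length. In CPM without a length, CNOT1 was at 366 and CNOT11 at 94.2 in control libraries. On that scale CNOT7 (179) was above CNOT8 (65.6), and CNOT4 (34.9) was below CNOT2 (59.3).

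**Figure D4:**
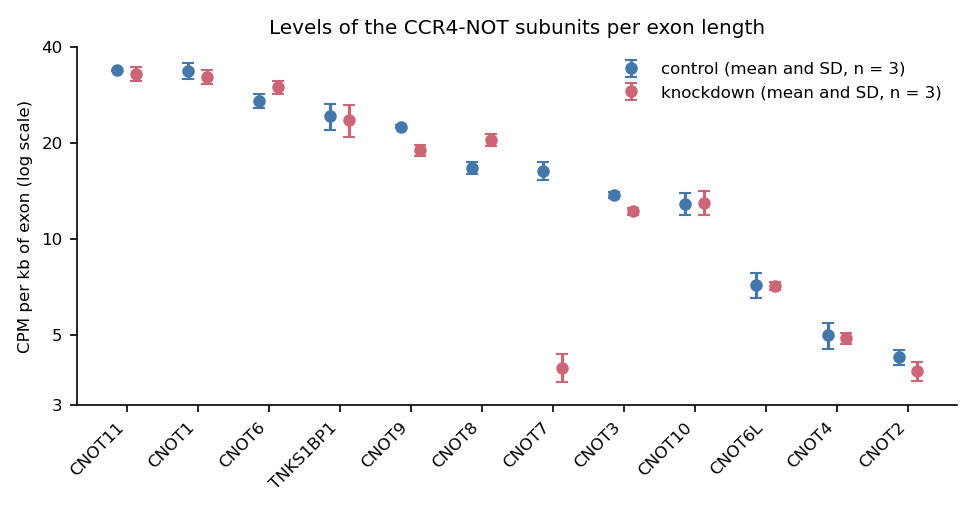
Levels of the 12 CCR4-NOT subunits per kb of exon (y axis, log scale), in order of the control level, as means with SD over 3 control and 3 knockdown libraries. CNOT7 drops from 16.3 to 3.94 CPM per kb, near the level of CNOT2, the lowest subunit on this scale. CNOT8 is higher and CNOT9 and CNOT3 are lower than in control, and the other 8 subunits were not called. The order depends on the exon lengths used.

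Outside CCR4-NOT, the 5 other deadenylases and poly(A)-binding proteins gave 0 calls, with 3 log2 fold changes below 0 and a median of -0.10. At an unadjusted p under 0.05 the count was 2, PARN and PABPC4, and DESeq2 called 0. Other settings called some of them: PAN3 (adjusted p = 0.0453) and PABPC1 (adjusted p = 0.016) were higher with the abundance trend removed, and PAN2, PARN and PABPC4 were lower after the GC and length correction, with adjusted p-values of at most 0.00274. PARN, a poly(A)-specific ribonuclease with roles in the nucleus, had the largest change of them. It was measured at 43.0, 47.4 and 47.8 CPM in control and at 40.3, 44.5 and 38.6 CPM in knockdown libraries. The groups overlapped, with a log2 fold change of -0.16 (SE 0.0739, adjusted p = 0.12), and PARN was called lower without knockdown replicate 2 (-0.22, adjusted p = 0.0292). The nuclease PAN2 and its partner PAN3 had log2 fold changes of -0.14 and 0.12, with groups that did not overlap and adjusted p-values of 0.152 and 0.147. The cytoplasmic poly(A)-binding proteins PABPC1 and PABPC4, which coat the tail, had log2 fold changes of 0.07 and -0.10. PABPC1 was the most abundant of the 46 genes per exon length, at 294 ± 13.3 CPM per kb in control libraries. It has many closely similar gene copies, and reads shared with them could have been split by the counting.

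Among the 9 decapping factors, 0 rose, 1 fell and 8 did not pass, with a median of -0.04. The call makes 11.1% of the 9, beside 25.2% of all genes tested. The gene that fell was DDX6, an RNA helicase that binds CNOT1 and joins deadenylation to decapping and translational repression (chr11:118747766-118791149). It was measured at 236, 247 and 249 CPM in control and at 201, 201 and 182 CPM in knockdown libraries. Every knockdown library was lower, and the mean was 79.9% of control. The log2 fold change was -0.32 (SE 0.0551, adjusted p = 3.32e-04). The decapping enzyme DCP2, its activators DCP1A and DCP1B and the scavenger enzyme DCPS had log2 fold changes from 0.02 to 0.17, and the scaffolds EDC3, EDC4 and PATL1 from -0.06 to -0.04, none of them called. PATL1 was called lower after the GC and length correction (adjusted p = 0.021). LSM1, the subunit that marks the cytoplasmic LSM ring, was picked out after its values were seen, as the largest change that did not pass. It was measured at 9.26, 9.97 and 8.42 CPM in control and at 8.02, 5.22 and 8.06 CPM in knockdown libraries, the lowest level of the 46 genes. The groups did not overlap but knockdown replicate 2 stood apart, with a log2 fold change of -0.37 (SE 0.147, adjusted p = 0.0729). Without knockdown replicate 2 it was -0.20 (adjusted p = 0.267). LSM1 was called lower in 5 of the 13 alternatives, among them no filter on low counts (adjusted p = 0.0215), the abundance trend removed (adjusted p = 0.0323), the GC and length correction (adjusted p = 0.0153) and without knockdown replicate 3 (adjusted p = 0.034). Of its exonic bases, 38.5% are shared with genes on the opposite strand.

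The 5′-3′ exonucleases XRN1, in the cytoplasm, and XRN2, in the nucleus, gave 0 calls, 0 at an unadjusted p under 0.05 and 0 with DESeq2. XRN2 was measured at 324, 335 and 318 CPM in control and at 325, 322 and 309 CPM in knockdown libraries. The groups overlapped. The log2 fold changes were -0.03 for XRN2 (95% interval -0.14 to 0.07) and -0.02 for XRN1 (95% interval -0.14 to 0.10).

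In the exosome, the 3′-5′ exonuclease complex, 1 of 11 genes rose, 1 fell and 9 did not pass, with a median of -0.02. The calls make 18.2% of the 11, beside 25.2% of all genes tested. The genes that moved, DIS3 and EXOSC10, encode nucleases and went in opposite directions, and a link to this role was not tested. DIS3L, a related gene among the further genes described below, was not called (log2 fold change -0.18, adjusted p = 0.0972). DIS3, the main nuclease of the nuclear exosome (chr13:72752169-72782096), was measured at 83.0, 89.6 and 85.5 CPM in control and at 103, 111 and 94.3 CPM in knockdown libraries. All knockdown libraries were higher, with a log2 fold change of 0.26 (SE 0.065, adjusted p = 0.00734). DIS3 lies on chromosome 13, where 78 of 308 tested genes rose and 22 fell around a median log2 fold change of 0.13, while the medians of the chromosomes of the other called genes lay between -0.02 and 0.00. The part of this shift in the rise of DIS3 was not tested. On the same chromosome PAN3 had a log2 fold change of 0.12, UPF3A 0.07 and EXOSC8 -0.03.

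EXOSC10, the nuclease that serves the exosome in the nucleus and nucleolus (chr1:11066618-11099881), was measured at 82.5, 85.9 and 82.0 CPM in control and at 72.5, 76.2 and 67.3 CPM in knockdown libraries. The groups did not overlap, and the log2 fold change was -0.21 (SE 0.0621, adjusted p = 0.018). The call was lost without control replicate 3, knockdown replicate 1 or knockdown replicate 3, with adjusted p-values up to 0.0784, and with the abundance trend removed (adjusted p = 0.0527). Of its exonic bases, 39.3% are shared with genes on the opposite strand, and the strand setting of the counting is not given in the sources used here. The 7 other EXOSC genes among the 46 belong to the core and cap of the complex and did not pass. Their log2 fold changes ran from -0.17 for EXOSC4 to 0.19 for EXOSC5. Both values moved with control replicate 1, in different ways. Without it EXOSC4 went from below 0 to 0.05, whereas EXOSC5 was larger, at 0.28, and was then called (adjusted p = 0.042). EXOSC5 stayed above 0 in all 13 alternatives, from 0.11 to 0.28. EXOSC2 was called lower after the GC and length correction (adjusted p = 0.0093). SKIV2L and TTC37, subunits of the SKI complex that feeds mRNA to the cytoplasmic exosome, had log2 fold changes of 0.00 and 0.03.

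Of the 7 NMD factors, 0 rose, 1 fell and 6 did not pass, with a median of -0.09. The call makes 14.3% of the 7, beside 25.2% of all genes tested. SMG5, which binds phosphorylated UPF1 and recruits decay enzymes (chr1:156249224-156282825), was measured at 188, 182 and 183 CPM in control and at 149, 141 and 147 CPM in knockdown libraries. All knockdown libraries were lower, and the mean was 79.0% of control. The log2 fold change was -0.34 (SE 0.0524, adjusted p = 1.27e-04), the largest among the decay genes past the threshold other than CNOT7. The helicase UPF1 and its partner UPF2 had log2 fold changes of -0.09 and -0.14, the adaptors UPF3A and UPF3B 0.07 and 0.09, the kinase SMG1 -0.06 and the endonuclease SMG6 -0.09, none of them called. UPF1, UPF2, SMG1 and SMG6 were called lower after the GC and length correction, with adjusted p-values of at most 0.0234. UPF2 was also called lower with the replicate block. SMG1 has closely similar gene copies on its chromosome, with which reads could be shared.

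A second list held 54 further genes of the same pathways, and all of them were tested. Of these, 4 rose, PAIP2B, PNRC2, ZCCHC7 and ZFC3H1, and 7 fell, TOE1, PAIP1, LSM14A, PELO, SMG9, MAGOHB and ETF1, which makes 20.4% beside 25.2% of all genes tested. The log2 fold change was below 0 in 42 of the 54 genes, beside 8660 of all 17574 genes tested. The median of the 54 genes was -0.13, beside 0.00 over all genes. The count of lower genes moved with single libraries: it was 3 without control replicate 1, 3 without control replicate 3 and 2 without knockdown replicate 1. It was 10 without control replicate 2, 9 without knockdown replicate 2 and 7 without knockdown replicate 3. Over all genes the lower calls fell from 2095 to 1606, 1367 and 1480 in the first 3 of these fits. For the further genes the count was 4 with the abundance trend removed and 31 after correction for GC content and length.

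The 3 further genes with the largest changes kept their calls in all 13 alternatives. PAIP2B, which binds poly(A)-binding protein and holds back translation, was measured at 17.6, 16.6 and 18.4 CPM in control and at 31.2, 30.6 and 29.4 CPM in knockdown libraries. No other decay gene of either list rose as much, with a log2 fold change of 0.79 (SE 0.0789, adjusted p = 1.27e-06). PNRC2, an adaptor between NMD and the decapping enzyme, was measured at 120, 143 and 131 CPM in control and at 171, 197 and 173 CPM in knockdown libraries. Its groups were well apart, with a log2 fold change of 0.46 (SE 0.069, adjusted p = 9.74e-05). SMG9, a subunit of the SMG1 kinase complex, was measured at 53.2, 50.8 and 47.2 CPM in control and at 39.0, 34.8 and 38.6 CPM in knockdown libraries. It was lower in every knockdown library, with a log2 fold change of -0.43 (SE 0.0727, adjusted p = 3.16e-04).

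By role, the further deadenylases and poly(A)-binding partners had 1 higher and 2 lower of 11 genes, and the further decapping genes 1 higher and 1 lower of 13. The further exosome and related genes, EXOSC1, EXOSC6, DIS3L and DIS3L2 among them, had 2 higher and 1 lower of 16. The further NMD, exon junction and termination factors had 0 higher and 3 lower of 14. In the order given, the calls make 27.3%, 15.4%, 18.8% and 21.4% of these groups, beside 25.2% of all genes tested. In the last group 13 of 14 log2 fold changes were below 0, beside 8660 of all 17574 genes tested. LSM2 to LSM7, which form the rest of the ring with LSM1, gave 0 calls of 6, with all 6 log2 fold changes below 0 and a median of -0.14.

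**Figure D5:**
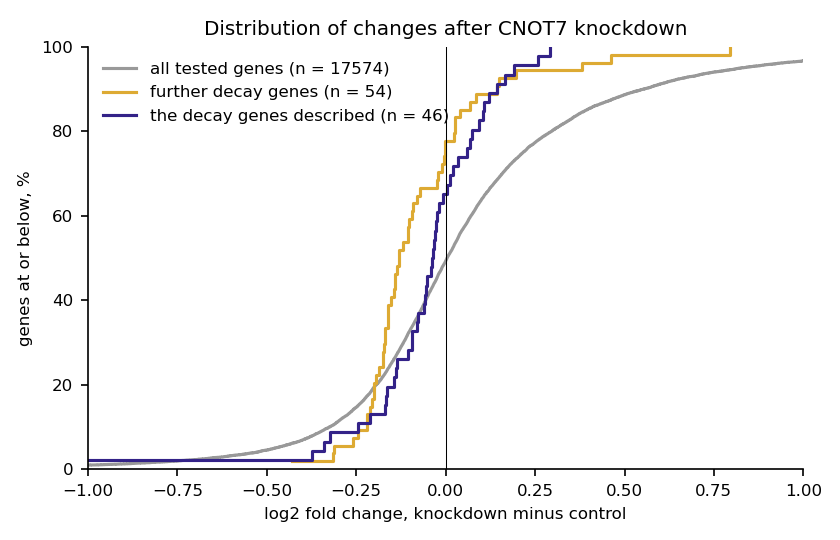
Cumulative distribution of log2 fold changes (x axis, knockdown minus control; y axis, percent of genes at or below) for the 46 decay genes, the 54 further decay genes and all 17574 tested genes. The curve of the 46 genes is steeper than that of all genes, with quartiles at -0.13 and 0.05 beside -0.15 and 0.22. All genes include far less abundant ones, and the spreads were not matched for abundance. The curve of the further genes lies to the left, with a median of -0.13. Values beyond 1 in size, CNOT7 among them, lie outside the axis.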

How the data were processed

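RNA was measured in 3 control and 3 CNOT7 knockdown libraries, grouped by their labelled genotype. According to the labels, total RNA was isolated with TRIzol and libraries were made with a NEBNext Ultra RNA kit. The submitters' processing notes name CASAVA 1.8, fastp, HISAT2 2.0.5, featureCounts 1.5.0-p3, DESeq2 1.20.0 and GRCh38, without parameters. The authors deposited raw counts per gene, not normalized, with a gene length. All 58735 identifiers, coordinates and lengths equalled those of GENCODE release 29. Columns of other samples numbered 0.

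Counts were analysed with edgeR 4.0.16 in R 4.3.3: filterByExpr, TMM factors, glmQLFit and glmQLFTest, Benjamini-Hochberg adjustment over 17574 genes, called under 0.05 whatever the fold change. The SE is the absolute log2 fold change over the square root of F. CPM used TMM-scaled totals. Members and lists were chosen with earlier results of these data known. Values in every library are given for CNOT7, CNOT8, CNOT6, CNOT6L, CNOT1, each member past the threshold, the largest change of a role group with none, and the 3 largest called changes of the further genes. Alternatives were RLE factors, DESeq2 1.42.0, no filter, a minimum of 10 counts in every library, blocking on the replicate number, cyclic loess (limma 3.58.1), each library left out and, added after seeing the data, GC and length offsets. The steps were tested on simulated data. Sequences were aligned with biopython 1.88 and plots drawn with matplotlib 3.10.9.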

Additional observations from a re-analysis of the deposited data

How the results depend on the processing

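The count of decay genes called higher was 2 and became 5 with the replicate block and 5 with the abundance trend removed, and the count called lower was 6 and became 12 with the block and 20 after correction for GC content and length. For the further decay genes, the 7 called lower became 21, 4 and 31 under these settings in that order. Over all genes, the 2095 called lower became 3306 with the block and 4567 after that correction. With 1 library left out, the counts ranged from 2 to 3 for decay genes called higher, from 4 to 7 for those called lower, from 2 to 10 for the further genes called lower, and from 1367 (without control replicate 3) to 2219 for all genes called lower. Without a gene length, the CNOT7 share of its pair was 73.1% in control and 34.9% in knockdown libraries, beside 49.4% and 16.1%. The cause of these shifts was not tested, and 0 values reversed their direction past the threshold. Of the comparisons of single genes with their alternatives, 554 stayed on the same side of the threshold over the 46 genes, 34 passed it only under the alternative and 10 lost the call.

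The replicate numbers were not taken to pair the libraries: deviations of same-numbered libraries from their group means correlated at 0.02, 0.15 and -0.02, and not every library correlated best with its own number. With the replicate block 6508 genes passed (37.0% of those tested), 3202 higher and 3306 lower, and 17 of the 46 decay genes. Genes called only there or in other alternatives included CNOT6 (adjusted p = 0.00219), PAN3 (0.0307) and EXOSC5 (0.0159) as higher, and PAN2 (0.0499), PARN (0.0187), PABPC4 (0.0198) and LSM1 (0.0134) as lower, all adjusted p-values with the block.

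At this depth, 3 libraries a group bounded 34 of the 38 uncalled genes to between 20% below and 25% above control. The called changes of CNOT8 and DIS3 lie inside this range. The upper bounds of the 34 genes nevertheless all lay below the rise of CNOT8. The intervals of DCP1B, EXOSC5, LSM1 and EXOSC4 reached further. The values are mRNA levels, and neither protein nor deadenylase activity was measured in these files.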
